A study of Homo sapiens with 6 samples.

Results

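Tetraspanins are small proteins that cross the membrane 4 times. The members were taken from the deposited gene table as every row typed as protein coding whose name was TSPAN followed by digits only, or CD9, CD37, CD53, CD63, CD81, CD82 or CD151. This rule used no measured value, but the family was chosen with earlier results of these data known. The rule found 28 of the 57819 genes in the table, and 20 of the 28 had enough reads to test. After knockdown of the long noncoding RNA sin-lncRNA in Ras-expressing human fibroblasts, 9 of the 20 rose, 6 fell and 5 were not called, while 41.0% of all genes tested and 48.6% of protein-coding genes were called. TSPAN11 rose the most among the members, to 3.07 times its control level, and TSPAN6, TSPAN19, CD37, TSPAN12 and CD82 rose to between 1.57 and 1.78 times theirs, TSPAN19 on few reads and with overlapping groups. CD81 fell to 63.2% of its control level and TSPAN14 to 80.9%.

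Tetraspanins rarely act as receptors themselves. They bind partner proteins side by side in the membrane, among them integrins, immunoglobulin-domain proteins and proteases, and gather them into patches called tetraspanin-enriched microdomains. CD9, CD63 and CD81 are the usual surface markers of extracellular vesicles. A subgroup called TspanC8, named for 8 cysteines in the large extracellular loop, binds the shedding protease ADAM10, carries it out of the endoplasmic reticulum and influences which substrates it cuts.

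The cells were IMR90, a line of human lung fibroblasts, carrying ER:Ras, an oncogenic Ras protein fused to a hormone-binding domain of the estrogen receptor that 4-hydroxytamoxifen (4OHT) switches on. Every library, control or knockdown, came from IMR90 ER:Ras cells given 4OHT at 200 nM for 3 days, so both groups carried active Ras. The control group had a scrambled siRNA (siSCR, 3 libraries) and the knockdown group an siRNA against sin-lncRNA (3 libraries). Cells without active Ras were not analysed here, and effects of this siRNA on other transcripts cannot be told apart from loss of sin-lncRNA. The labels do not say whether the libraries of a group came from separate cultures, so p-values measure only the spread between these libraries.

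Total reads were 30271192 to 50913672 in the control libraries and 22117324 to 27882280 in the knockdown libraries, and the deepest knockdown library had fewer reads than the shallowest control. With depth made equal by random thinning, 14 of the 15 tetraspanin calls described next remained. Levels are given as CPM (reads scaled to the effective library size), and 3 reads correspond to 0.0596 to 0.134 CPM across the libraries. The target was measured first: sin-lncRNA stood at 3.70, 4.73 and 4.09 CPM in the control libraries and at 0.493, 0.640 and 0.534 CPM in the knockdown libraries, a log2 fold change of -2.86 (SE 0.18, limma adjusted p = 7.9e-07). The 11 fibroblast markers examined were all measured, and all were called, 6 higher and 5 lower. COL1A1 and COL1A2, the chains of type I collagen, stood at 54.4% and 58.7% of control, LUM at 159.7% and FN1 at 118.5%. Their sum, mostly FN1, was 40620 to 42440 CPM in controls and 40820 to 42280 CPM after knockdown. Of 9 leukocyte markers, 7 stayed below 1 CPM in every library, and MS4A1 and LCP2 had no read. The leukocyte sum was 8.06 to 8.81 CPM in controls and 4.17 to 5.74 CPM after knockdown, most of it CORO1A. The epithelial markers (8 genes, with KRT5 and SCGB1A1 at 0) summed to 8.76 to 10.7 CPM in controls and 4.84 to 5.91 CPM after knockdown, and the endothelial markers (5 genes) to 15.3 to 18.6 CPM and 10.8 to 11.3 CPM. The part of these low signals in the results was not tested.

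The comparison asked which transcripts differ when sin-lncRNA is reduced in cells with active Ras. It was made with limma on log2 CPM, and a gene was called when its p, adjusted by the Benjamini-Hochberg method over all 19048 genes tested, was under 0.05. Changes were widespread: 7805 genes were called, which is 41.0% of those tested, with 17.5% higher and 23.5% lower. Among protein-coding genes 48.6% were called. Of the 20 tetraspanin genes tested, 15 were called (75%), and the median of their log2 fold changes was 0.08 against -0.04 over all genes tested. The median size of the change, whatever its sign, was 0.26 for the tetraspanins and 0.23 for all genes. Some members with many reads were called at small changes, such as CD63 at -0.12 and TSPAN17 at -0.15. The part of read depth in the share called was not tested. The control and knockdown libraries did not overlap for 13 of the 20 (65%), against 51.1% of all genes tested. As the family was chosen with earlier results of these data known, these shares are a description and not a test. As fewer cells of a type and less RNA per cell cannot be told apart in bulk RNA, each level is an average over the culture.

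**Figure D1:**
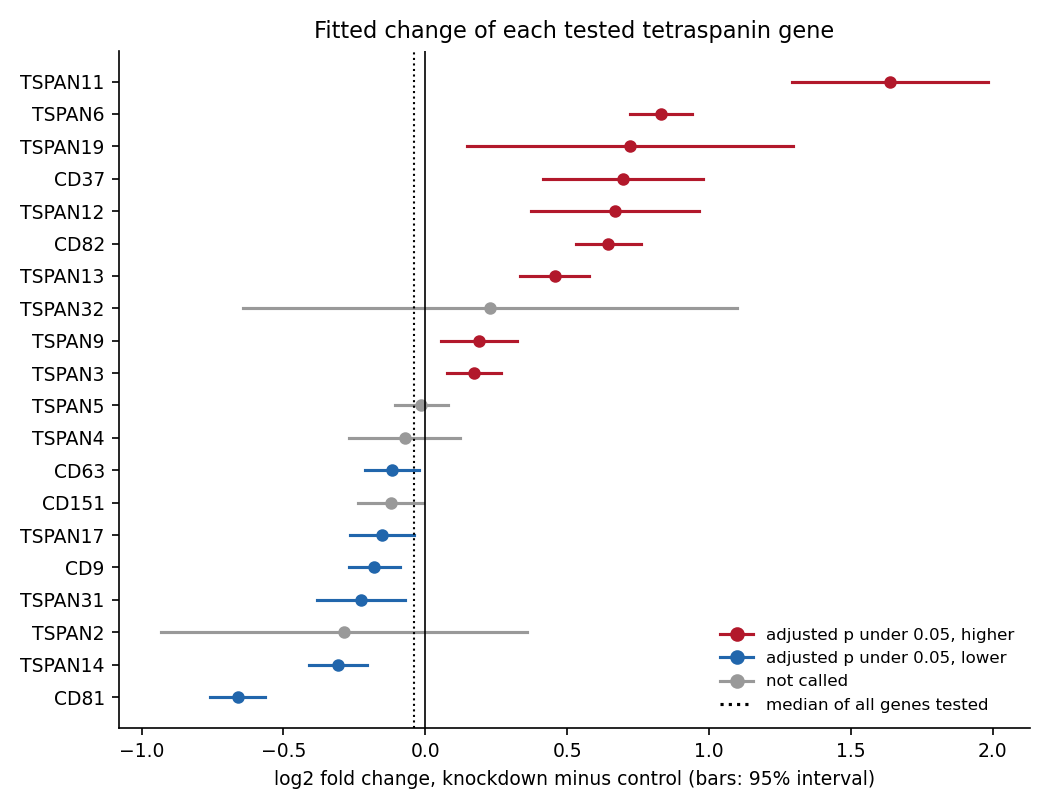
Log2 fold change (knockdown minus control, horizontal axis) of each of the 20 tested tetraspanin genes, with bars for the 95% interval from limma, coloured by call; the dotted line is the median of all genes tested. The 9 genes called higher reach 1.64 (TSPAN11), and the 6 called lower reach -0.66 (CD81).

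By subgroup, the calls went in different directions. Of the 5 broadly expressed members with CD names (CD9, CD63, CD81, CD82 and CD151), 3 fell, CD82 rose and CD151 was not called. Among the 3 tested members of the TspanC8 subgroup, TSPAN14 and TSPAN17 fell and TSPAN5 was not called. TSPAN10, also a TspanC8 gene, is not typed as protein coding in the table, so it is not counted here. It was called lower (log2 fold change -0.81, limma adjusted p = 0.034). The other 10 tested TSPAN genes included 7 that rose, 1 that fell (TSPAN31) and 2 that were not called. Of the leukocyte-restricted members, CD37 rose, TSPAN32 was not called and CD53 was too low to test.

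The largest change was in TSPAN11, a little-studied member (chromosome 12, 31079362 to 31149534, plus strand, hg19). Its levels were 2.58, 1.70 and 1.79 CPM in the control libraries and 6.14, 6.19 and 6.31 CPM in the knockdown libraries. Every knockdown library lay above every control library, and the first control was the highest of its group. The means were 2.02 ± 0.49 and 6.21 ± 0.08 CPM (SD, n = 3 each), a log2 fold change of 1.64 (SE 0.16, 95% interval 1.29 to 1.99, limma adjusted p = 1.7e-05). The controls had 51 to 90 reads each and the knockdown libraries 137 to 177.

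TSPAN6, a member described in the traffic of multivesicular endosomes, is encoded on the X chromosome (99883667 to 99894988, minus strand). It was measured at 36.1, 35.8 and 36.4 CPM in the controls and at 62.4, 66.8 and 63.5 CPM after knockdown. The controls hardly differed (SD 0.32 CPM) and lay far below all knockdown libraries. The log2 fold change was 0.83 (SE 0.05, 95% interval 0.72 to 0.94, limma adjusted p = 6.4e-07).

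CD82, also called KAI1 and known as a suppressor of metastasis (chromosome 11, 44585977 to 44641913, plus strand), was the only one of the abundant CD-named members called higher. Control levels were 207.7, 203.4 and 203.7 CPM and knockdown levels were 295.6, 341.1 and 326.7 CPM. The groups were well apart, with more spread among the knockdown libraries (SD 23.3 CPM) than among the controls (SD 2.4 CPM). The log2 fold change was 0.65 (SE 0.05, 95% interval 0.53 to 0.76, limma adjusted p = 5.3e-06).

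CD81, a receptor used by hepatitis C virus, lies on the same chromosome (2397407 to 2418649, plus strand) and fell. It was measured at 347.8, 332.0 and 359.2 CPM in the controls and at 211.4, 224.8 and 220.5 CPM after knockdown. All knockdown libraries were below all controls, with SDs of 6.8 and 13.7 CPM. The log2 fold change was -0.66 (SE 0.04, 95% interval -0.76 to -0.56, limma adjusted p = 1.5e-06).

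**Figure D2:**
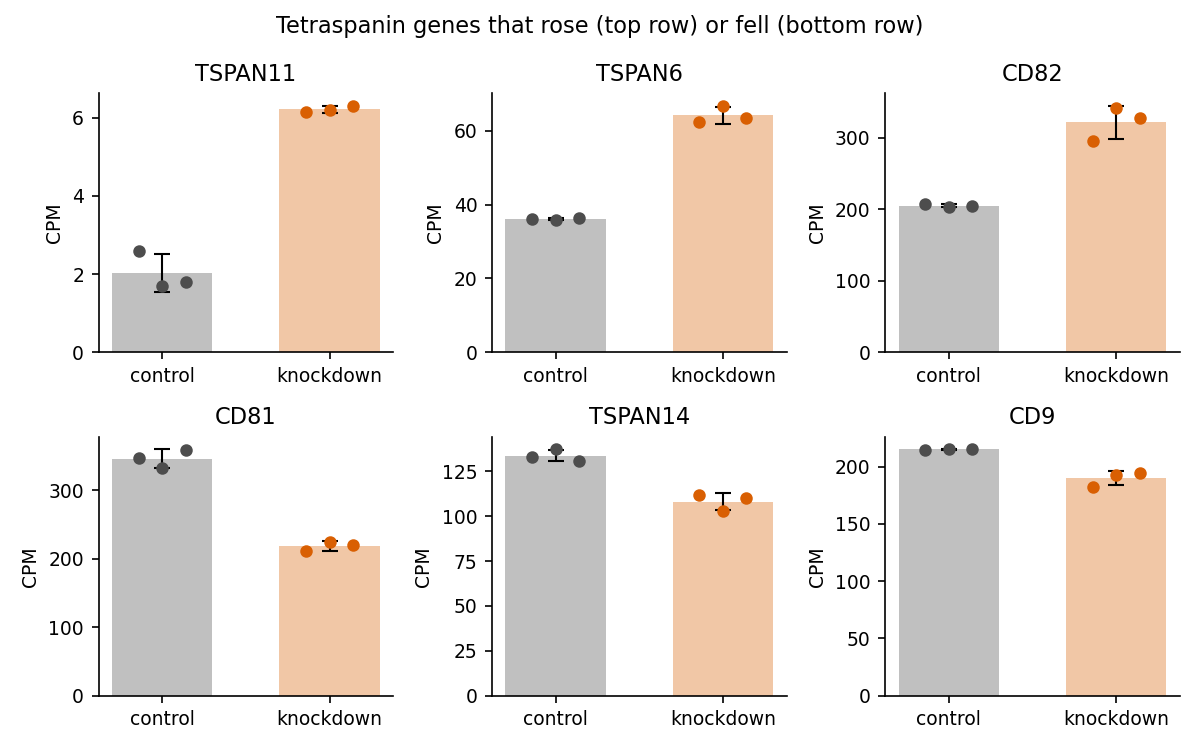
CPM of 6 tetraspanin genes (vertical axis from 0) in control and knockdown cells; points are libraries, bars the mean of 3 libraries and error bars the SD. The groups do not overlap in any of the 6, with TSPAN11, TSPAN6 and CD82 higher after knockdown and CD81, TSPAN14 and CD9 lower.

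The reads of CD82 and CD81 crossed over between the groups. The number of CD82 reads per CD81 read was 0.597, 0.613 and 0.567 in the control libraries and 1.40, 1.52 and 1.48 in the knockdown libraries. This ratio is taken within each library, so library size drops out of it, but it is not corrected for the different lengths of the transcripts. Its mean went from 0.592 ± 0.023 to 1.47 ± 0.06 (SD, n = 3 each), with no overlap between groups. The corresponding ratio of CD9 to CD81 had means of 0.621 and 0.868. Divided by total exon length, CD82 already stood above CD81 in the controls (50.6 against 46.8 CPM per kilobase). That length joins all annotated exons, 7394 bases for CD81 and 4054 for CD82, and can exceed a single transcript. Whether the transcript levels crossed therefore depends on the lengths used.

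The windows around the transcription starts of the clearest risers and of TSPAN14 are shown because these genes changed in opposite directions. RefSeq (GRCh38.p14) entries spanning 250 bases before to 50 after the start were found for 20 of the 28 members, including 6 that rose and 5 that fell. CD81, the called member that fell the most, had no entry. Each is printed 5′ to 3′ on the gene's strand, with capitals marking matches, on either strand, to 5 short motifs: the GC box GGGCGG, the CCAAT box CCAAT, the TATA box TATAAA, the E-box CACGTG and the AP-1 site TGANTCA. No base in these windows belonged to matches of more than 1 motif. The windows are chr12:30926498-30926797 (plus) for TSPAN11, chrX:100636757-100637056 (minus) for TSPAN6, chr11:44565413-44565712 (plus) for CD82 and chr10:80454060-80454359 (plus) for TSPAN14.
TSPAN11: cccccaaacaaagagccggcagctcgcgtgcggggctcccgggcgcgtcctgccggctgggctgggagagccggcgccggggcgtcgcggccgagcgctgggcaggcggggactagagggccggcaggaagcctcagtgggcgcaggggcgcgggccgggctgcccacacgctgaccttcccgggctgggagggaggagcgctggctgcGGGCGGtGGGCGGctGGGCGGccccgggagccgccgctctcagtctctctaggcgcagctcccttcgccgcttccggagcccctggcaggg
TSPAN6: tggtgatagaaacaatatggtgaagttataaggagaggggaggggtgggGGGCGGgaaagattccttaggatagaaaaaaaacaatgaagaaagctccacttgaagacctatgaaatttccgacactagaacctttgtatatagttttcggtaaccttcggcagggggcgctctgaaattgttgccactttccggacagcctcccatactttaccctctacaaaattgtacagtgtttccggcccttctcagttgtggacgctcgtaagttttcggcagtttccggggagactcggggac
CD82: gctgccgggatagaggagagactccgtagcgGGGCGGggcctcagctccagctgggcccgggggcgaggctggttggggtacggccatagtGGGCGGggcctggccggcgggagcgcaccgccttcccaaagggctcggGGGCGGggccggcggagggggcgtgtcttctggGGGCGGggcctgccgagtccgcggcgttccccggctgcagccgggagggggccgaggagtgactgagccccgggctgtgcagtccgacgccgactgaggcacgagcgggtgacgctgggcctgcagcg
TSPAN14: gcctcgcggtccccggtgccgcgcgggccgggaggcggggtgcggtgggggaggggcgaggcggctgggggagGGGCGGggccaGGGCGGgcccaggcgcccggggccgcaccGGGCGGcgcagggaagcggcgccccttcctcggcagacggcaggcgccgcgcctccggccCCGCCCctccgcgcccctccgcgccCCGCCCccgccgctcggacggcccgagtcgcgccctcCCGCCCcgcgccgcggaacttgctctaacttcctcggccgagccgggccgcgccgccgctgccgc
The TSPAN11, CD82 and TSPAN14 windows are rich in G and C (78.3%, 76.7% and 85.7%) and hold 3, 4 and 6 GC boxes. The TSPAN6 window has 47.3% G and C and 1 GC box, and the other window listed for TSPAN6 has 42.3%, no GC box, 1 CCAAT box and 1 E-box. For TSPAN11 and TSPAN14 the first of several listed windows is shown, and for TSPAN6 the second. In the first window listed for each called member, a GC box occurred in 3 of the 6 that rose and 3 of the 5 that fell, against 45.0% of 35116 windows genome-wide. This tally takes the window of TSPAN6 that is not printed; over all windows listed for a gene, a GC box occurred in 4 of the 6 and 4 of the 5. CCAAT occurred in 3 of 6 and 2 of 5 (34.6% genome-wide), CACGTG in 1 and 1 (7.26%) and TGANTCA in 0 and 1 (7.71%). TATAAA occurred in none of the 11 (11.5% genome-wide). A match describes letters in the window only.

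TSPAN12 is a small accessory subunit of the receptor for Norrin, where it acts with the receptor FZD4 and the co-receptor LRP5 (chromosome 7, 120427376 to 120498456, minus strand). Its levels were low, at 2.56, 2.33 and 3.00 CPM in the controls and 3.99, 4.61 and 3.92 CPM after knockdown. The groups did not overlap, and the log2 fold change was 0.67 (SE 0.13, 95% interval 0.37 to 0.97, limma adjusted p = 0.0023). FZD4 and LRP5, taken from the partner list after their values were seen, also rose: FZD4 from a mean of 11.5 CPM to between 13.2 and 14.9 CPM in the knockdown libraries (log2 fold change 0.29, adjusted p = 0.0094) and LRP5 from 38.2 to 52.8 CPM (0.47, adjusted p = 0.00079). NDP, which encodes the ligand Norrin, fell from 2.47, 2.03 and 1.83 CPM to 1.12, 1.20 and 0.641 CPM (log2 fold change -1.12, SE 0.24, adjusted p = 0.0038). The receptor genes and the ligand gene moved in opposite directions in the same libraries.

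TSPAN13 lies on the same chromosome as TSPAN12 (16793160 to 16824161, plus strand). It stood at 28.7, 26.6 and 28.8 CPM in the controls and at 38.1, 38.5 and 38.6 CPM in the knockdown libraries, which lay closely together above all controls. The log2 fold change was 0.46 (SE 0.05, 95% interval 0.34 to 0.58, limma adjusted p = 8.2e-05).

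CD37, best known from mature B cells (chromosome 19, 49838428 to 49846592, plus strand), had 3.85, 4.26 and 3.30 CPM in the controls and 6.01, 5.55 and 6.91 CPM after knockdown. All knockdown libraries were higher, with a log2 fold change of 0.70 (SE 0.13, 95% interval 0.42 to 0.98, limma adjusted p = 0.0013). The summed leukocyte markers moved the other way, and the pan-leukocyte gene PTPRC averaged 0.060 and 0.041 CPM. The gene overlaps 2 listed genes on the opposite strand, and no source used here states whether reads were counted by strand, so reads in the shared stretch cannot be told apart. TEAD2, the larger of them, went from 55.3 to 59.8 CPM and was not called. CTC-301O7.4, a long intergenic RNA, rose from 1.00 ± 0.07 to 1.98 ± 0.36 CPM (log2 fold change 0.97, adjusted p = 0.0017).

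Calls for 3 further risers were less secure. TSPAN3, a member studied in leukaemia stem cells (chromosome 15, 77336359 to 77376326, minus strand), measured 151.9, 157.5 and 162.5 CPM in the controls and 172.3, 179.8 and 179.6 CPM after knockdown. The groups did not overlap but the step was small, with a log2 fold change of 0.17 (SE 0.04, 95% interval 0.08 to 0.27, limma adjusted p = 0.0084). TSPAN9, which is present on platelets (chromosome 12, 3186521 to 3395730, plus strand), measured 83.3, 73.9 and 73.4 CPM and 83.3, 92.5 and 86.9 CPM. The first control reached the level of the first knockdown library, and the log2 fold change of 0.19 (SE 0.06, limma adjusted p = 0.029) lost its call without control 2 (adjusted p = 0.072), control 3 (0.124), knockdown 2 (0.107) or knockdown 3 (0.074). RP11-543P15.1, a pseudogene opposite to TSPAN9, averaged 82.8 and 82.1 CPM and was not called. TSPAN19, on the same chromosome (85408094 to 85430055, minus strand), rested on 21 to 51 reads per library, with 0.969, 0.699 and 1.01 CPM in the controls and 1.61, 1.92 and 0.997 CPM after knockdown. Knockdown library 3 lay among the controls, and the log2 fold change of 0.72 (SE 0.26, lower end of the 95% interval 0.15, limma adjusted p = 0.046) kept its call in only 1 of the 6 fits that left out a library. Without control 1, 2 or 3 the adjusted p was 0.061, 0.122 and 0.068, and without knockdown 1 or 2 it was 0.124 and 0.166. It was 0.066 with voom weights and 0.176 at equal depth.

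TSPAN14, a TspanC8 gene, fell (chromosome 10, 82213922 to 82292879, plus strand). It measured 133.0, 137.2 and 130.8 CPM in the controls and 111.6, 102.6 and 110.1 CPM after knockdown. The groups were apart, and the log2 fold change was -0.31 (SE 0.05, 95% interval -0.41 to -0.20, limma adjusted p = 0.00042). TSPAN17 (chromosome 5, 176074388 to 176086058, plus strand) went from 99.2, 105.2 and 102.2 CPM to 89.2, 89.0 and 97.9 CPM. Its groups did not overlap, but the log2 fold change of -0.15 (SE 0.05, limma adjusted p = 0.033) was not called without control 2 (adjusted p = 0.092), control 3 (0.097), knockdown 1 (0.095) or knockdown 2 (0.109). TSPAN5 (chromosome 4, 99391518 to 99579780, minus strand) was at 128.5, 136.0 and 134.0 CPM and at 129.1, 132.1 and 133.2 CPM, with fully overlapping groups and a log2 fold change of -0.01 (95% interval -0.11 to 0.08). TSPAN15 and TSPAN33 had at most 5 reads in any library and were not tested.

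The transcript of the protease that these TspanC8 proteins carry went up, and protein was not measured. ADAM10 measured 197.7, 196.5 and 192.1 CPM in the controls and 327.3, 314.2 and 323.9 CPM after knockdown, and the groups were far apart. The log2 fold change was 0.72 (SE 0.04, limma adjusted p = 3.9e-07). The reads summed over the TspanC8 members, without TSPAN10, stood at 360.7, 378.4 and 367.1 CPM in the controls and at 330.1, 323.8 and 341.2 CPM after knockdown. ADAM10 reads per TspanC8 read were 0.548, 0.519 and 0.523 in the controls and 0.992, 0.971 and 0.950 after knockdown, with no overlap, on means of 0.530 ± 0.016 and 0.971 ± 0.021 (SD, n = 3 each). The ratio is not corrected for transcript length. Within the TspanC8 sum the part from TSPAN14 averaged 36.3% in controls and 32.6% after knockdown.

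Of 20 listed genes for ADAM10 substrates, 15 were tested, 6 rose, 4 fell and 5 were not called, with a median log2 fold change of 0.19. That is 66.7% called, against 48.6% of protein-coding genes and 41.0% of all genes. As the list was chosen with earlier results of these data known, the shares are a description and not a test. CD44 is on this list and on that of tetraspanin partners. CX3CL1, a membrane-bound chemokine, fell from 3.20, 2.50 and 2.74 CPM to 1.12, 1.03 and 0.855 CPM (log2 fold change -1.47, SE 0.17, adjusted p = 6.9e-05). CD44, the hyaluronan receptor, fell from 1360, 1413 and 1424 CPM to 673.0, 652.1 and 617.1 CPM (-1.11, SE 0.04, adjusted p = 5.6e-08). Both genes had all knockdown libraries below all controls. In the other direction, IL6R, the receptor for interleukin-6, went from a mean of 3.50 to 6.33 CPM (0.86, adjusted p = 0.00053), and CDH2, which encodes N-cadherin, from 40.9 to 66.5 CPM (0.71, adjusted p = 2.3e-05).

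CD9 associates in the membrane with CD81 and with the immunoglobulin-domain proteins PTGFRN and IGSF8 (chromosome 12, 6308881 to 6347425, plus strand). Its controls were almost identical at 214.8, 214.9 and 215.0 CPM, and the knockdown libraries measured 182.5, 192.8 and 194.4 CPM. All knockdown libraries were lower, by a small step of -0.18 in log2 (SE 0.04, 95% interval -0.27 to -0.09, limma adjusted p = 0.0051). PTGFRN rose the most of the tested partner genes, from 3.03, 3.60 and 2.74 CPM to 10.6, 11.5 and 11.0 CPM, a log2 fold change of 1.83 (SE 0.11, limma adjusted p = 8.7e-07). IGSF8 went the other way, from 23.3, 20.1 and 22.7 CPM to 15.1, 17.2 and 15.5 CPM (-0.47, SE 0.08, adjusted p = 0.00078). For both genes the groups did not overlap. CLDN1, the claudin that associates with CD81, rose from 54.7, 56.8 and 53.6 CPM to 124.9, 148.0 and 108.9 CPM (1.20, SE 0.09, adjusted p = 2.9e-06).

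CD63, the late endosomal and vesicle member (chromosome 12, 56119107 to 56123491, minus strand), measured 857.1, 899.3 and 878.3 CPM in the controls and 773.8, 838.2 and 815.5 CPM after knockdown. The knockdown libraries were all lower by a little, with a log2 fold change of -0.12 (SE 0.04, 95% interval -0.21 to -0.02, limma adjusted p = 0.047). The call was lost without control 2 (adjusted p = 0.120), control 3 (0.133), knockdown 1 (0.138) or knockdown 3 (0.099), with library totals (0.079), and with quantile normalization, where the log2 fold change was -0.06 (0.241). An antisense gene on the opposite strand of CD63, RP11-644F5.11, fell from 2.25 ± 0.24 to 1.58 ± 0.11 CPM (log2 fold change -0.50, adjusted p = 0.021). TSPAN31, which is amplified in sarcomas together with its neighbour CDK4 (chromosome 12, 58131796 to 58143994, plus strand), went from 12.3, 12.3 and 11.8 CPM to 10.5, 10.3 and 10.3 CPM. The groups did not overlap, and the log2 fold change was -0.23 (SE 0.07, limma adjusted p = 0.023). It was not called without control 1 (adjusted p = 0.054), 2 (0.067) or 3 (0.055), or without knockdown 2 (0.058) or 3 (0.063). CDK4, which overlaps TSPAN31 on the opposite strand, averaged 74.6 and 72.1 CPM and was not called, and AGAP2, which overlaps its other end, averaged 0.344 and 0.318 CPM.

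**Figure D3:**
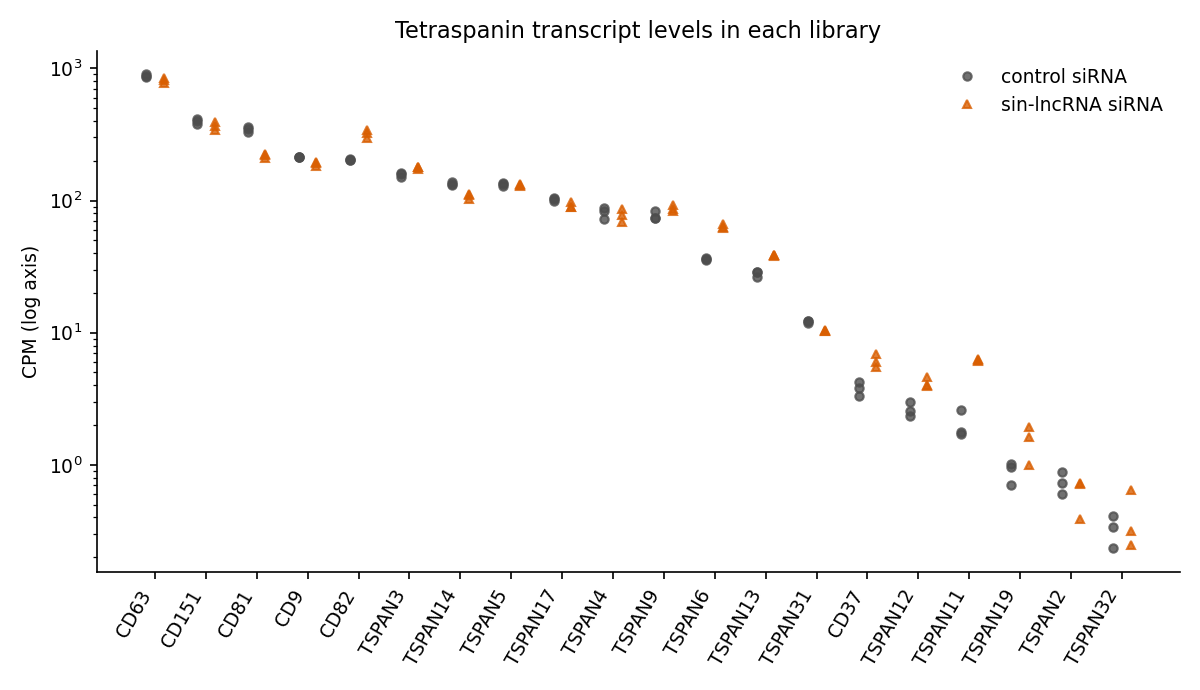
CPM (log axis) of the 20 tested tetraspanin genes in each library, circles for the 3 control libraries and triangles for the 3 knockdown libraries, ordered by control CPM without correction for transcript length. Knockdown libraries of CD81 lie below their controls, those of TSPAN6 and TSPAN11 above, and those of TSPAN5 among them.

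Among the members not called, CD151, the tetraspanin that binds laminin-binding integrins (chromosome 11, 832843 to 839831, plus strand), lay closest to the threshold. Its levels were 410.6, 382.4 and 400.5 CPM in the controls and 342.6, 391.5 and 363.6 CPM after knockdown, and the second knockdown library overlapped the controls. The log2 fold change was -0.12 (95% interval -0.24 to -0.01, limma adjusted p = 0.086), and it was called without control 2 (-0.15, adjusted p = 0.0499) and without knockdown 2 (-0.17, adjusted p = 0.026). Of its integrin partners, ITGA3 averaged 248.5 and 255.9 CPM (0.04, not called), ITGB1 averaged 2546 ± 232 and 2810 ± 29 CPM (0.15, adjusted p = 0.078), and ITGA6 went from 208.6 to 230.1 CPM (0.14, adjusted p = 0.049). ITGB1 was called without control 2 (0.19, adjusted p = 0.019), with library totals (0.043) and with quantile normalization (0.025), and ITGA6 lost its call without control 1 (0.113), control 3 (0.118), knockdown 1 (0.152) or knockdown 3 (0.160).

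TSPAN4, found in the retraction-fibre organelles called migrasomes (chromosome 11, 842808 to 867116, plus strand), measured 83.5, 72.0 and 87.7 CPM and 68.4, 85.9 and 77.2 CPM. The groups overlapped, with a log2 fold change of -0.07 and a 95% interval of -0.27 to 0.12. TSPAN2, a member known from myelin-forming cells, had 18 to 37 reads in each control and 11 to 17 in each knockdown library, and its interval of -0.93 to 0.36 leaves changes of either sign. TSPAN32, a leukocyte-restricted member, had 7 to 17 and 7 to 15 reads and an interval of -0.64 to 1.10. The interval of TSPAN2 takes in a fall of the size seen in CD81, and that of TSPAN32 a rise of the size seen in CD82.

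The remaining 8 members were below the filter of a mean of 10 normalized reads. CD53 of leukocytes, TSPAN7, TSPAN8, TSPAN15 and TSPAN16 had at most 3 reads in every library, which is the floor used here. TSPAN33 had 0, 0 and 2 reads in the controls and 5, 2 and 2 reads after knockdown. TSPAN18 had 8, 3 and 9 reads and 2, 4 and 4 reads, and TSPAN1 had 6, 5 and 4 reads and 6, 2 and 4 reads. TSPAN1 lies opposite PIK3R3 (looked up after the values were seen), a gene with a mean of 66.2 CPM in controls and 105.3 CPM after knockdown. All 8 together held 10 to 22 reads in each control and 9 to 14 in each knockdown library, so the family's transcripts in these cells came almost wholly from the 20 tested genes.

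Summed over the 28 genes, the family's level overlapped between the groups. The sums were 2806, 2799 and 2835 CPM in the controls and 2590, 2806 and 2737 CPM after knockdown, with the second knockdown library at the level of the first control. The part of this sum taken by CD81 went from 12.3 ± 0.41% to 8.08 ± 0.08%, while that of CD82 went from 7.29 ± 0.11% to 11.8 ± 0.38% (SD, n = 3 each). CD63 held 31.2 ± 0.82% and 29.9 ± 0.05%, and CD151 held 14.1% and 13.5%. These parts are of CPM and are not corrected for transcript length.

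**Figure D4:**
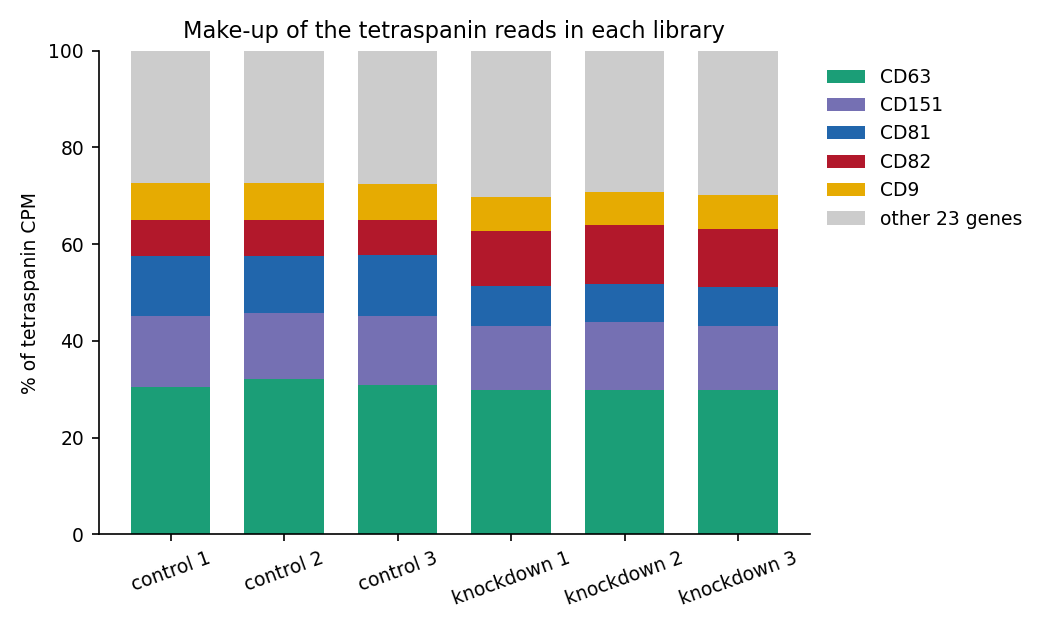
Share of the summed tetraspanin CPM (vertical axis, percent) held by the 5 abundant CD-named genes and by the other 23 genes in each of the 6 libraries. CD81 holds about 12.3% in controls and 8.08% after knockdown, and CD82 about 7.29% and 11.8%.

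To compare levels between genes, CPM was divided by the total exon length of each gene in kilobases (CPM per kb), taken from GENCODE release 29, which is not stated to be the annotation behind the table. That length joins all annotated exons of a gene and can exceed the length of a single transcript, so the order in CPM per kb depends on it. On this scale CD63 led in control cells with 333.5 CPM per kb, followed by CD151 with 101 CPM per kb. CD9 (51.6 CPM per kb), CD82 (50.6) and CD81 (46.8) came next, and the libraries of these 5 genes did not overlap those of their neighbours in the order, although CD9 and CD82 were close. In the middle, TSPAN17, TSPAN3 and TSPAN5 stood at 17.9 to 19.6 CPM per kb with overlapping neighbours, as did TSPAN4, TSPAN13 and TSPAN9 at 11.1 to 13.9. TSPAN6 (7.96 CPM per kb) and TSPAN14 (7.47) followed, then TSPAN31 (2.25). Below 1 CPM per kb were CD37 and TSPAN12, which overlapped, then TSPAN11, TSPAN19 and TSPAN2, each overlapping the next, and TSPAN32 at 0.0863.

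After knockdown CD63 and CD151 still led, at 307.3 and 92.9 CPM per kb, and CD82 came next at 79.2 CPM per kb, ahead of CD9 (45.6) and CD81 (29.6). TSPAN6 stood at 14.2 CPM per kb, against 6.04 for TSPAN14, where the control levels of the pair had been close on this scale. Before division by exon length TSPAN14 was the higher of the pair in both groups. It averaged 133.7 CPM in controls and 108.1 CPM after knockdown, against 36.1 and 64.3 CPM for TSPAN6. TSPAN11 reached 0.873 CPM per kb from 0.285, and remained behind CD37 (1.48) and TSPAN12 (1.24).

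Genes for proteins that bind tetraspanins were examined as a list. Of 27 listed partners 23 were tested, 11 rose, 7 fell and 5 were not called (78.3% called against 48.6% of protein-coding genes and 41.0% of all genes, median log2 fold change 0.15). The list was chosen with earlier results of these data known, so these shares describe it and test nothing. PTGFRN, CLDN1, NDP and CD44, described above, were the 4 called partners with the largest changes. These 4 of the 23 passed the threshold with a change of at least 1 on the log2 scale, against 561 of all 19048 genes tested.

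**Figure D5:**
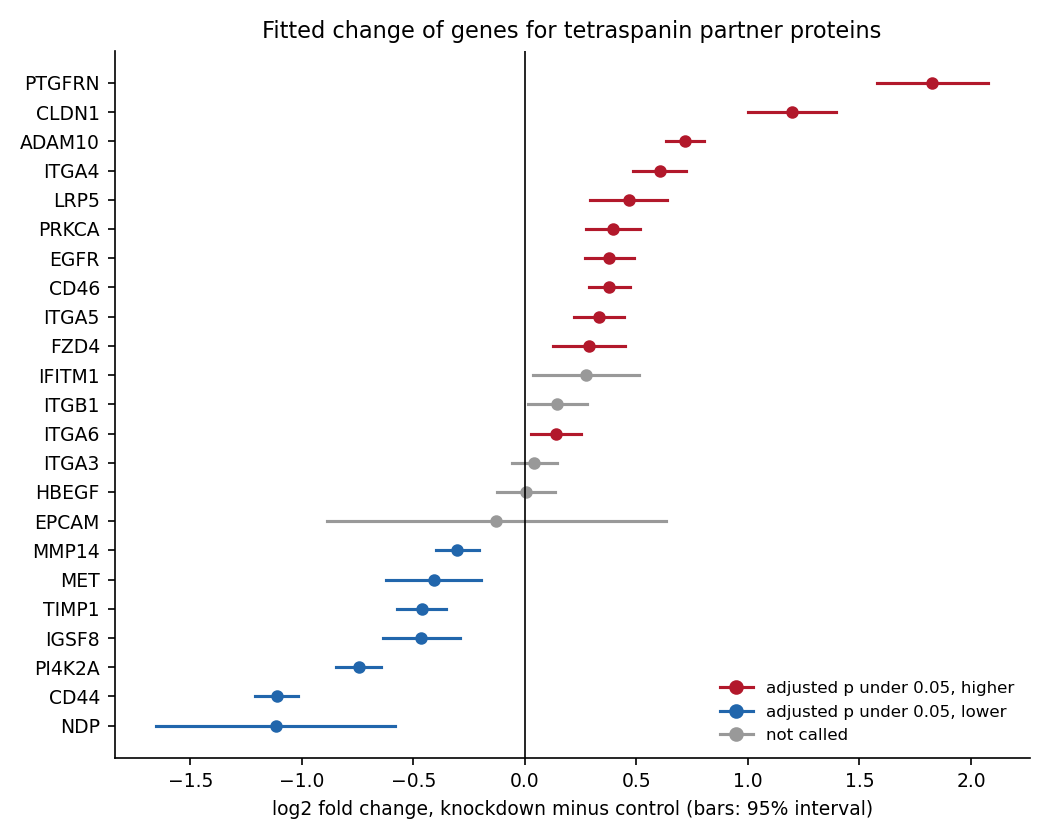
Log2 fold change (knockdown minus control, horizontal axis) of the 23 tested genes for tetraspanin partner proteins, with bars for the 95% interval from limma, coloured by call. PTGFRN at 1.83 and CLDN1 at 1.20 lie highest, and CD44 at -1.11 and NDP at -1.12 lowest.

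Extracellular vesicles carry tetraspanins at their surface, and genes known to act in making or releasing them formed another list. Of 24 listed genes 22 were tested, 4 rose, 7 fell and 11 were not called (median log2 fold change -0.05). The 50% called is near the 48.6% of protein-coding genes. FLOT2, a scaffold protein of membrane rafts, fell from 103.6, 104.2 and 103.0 CPM to 44.9, 44.0 and 43.1 CPM, with a log2 fold change of -1.24 (adjusted p = 3.2e-08). RAB35, a GTPase of endosome recycling, fell from a mean of 79.5 to 46.0 CPM (-0.79, adjusted p = 7.4e-07), and PLD2, a phospholipase, from 22.3 to 16.8 CPM (-0.41, adjusted p = 0.0012). RAB27B, which takes part in the docking of vesicle-filled endosomes at the plasma membrane, rose from 5.46, 4.70 and 4.89 CPM to 10.3, 9.18 and 9.94 CPM (0.97, adjusted p = 2.0e-05). All 4 genes had groups that did not overlap.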

How the data were processed

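Polyadenylated RNA from 6 libraries was sequenced as single 50 bp reads, per the labels' protocols. The submitters' processing notes name Bowtie2, featureCounts and hg19, with no role or version. The deposited table holds log2 CPM values that the authors computed for 57819 genes. They were read as log2 of (reads + 0.5) over the effective library size + 1, scaled to CPM. With the lowest value of each library taken as no read, the offset of 0.5 gave whole reads for 100% of values within 1e-06 reads. That check does not depend on the library size, so the 1 added to it was assumed. CPM printed here is those reads over the effective size, without the offset. limma 3.58.1 (R 4.3.3, lmFit, eBayes with trend) was run on the deposited log2 values for genes with a mean of at least 10 normalized reads. The test was two-sided, with group only. The fit was also run on simulated data, with far fewer changed genes than were called here and larger changes than many of these. That run therefore does not give the error rate on these data. Counting error is set by depth, 22117324 to 50913672 reads per library. An exact permutation test of 3 against 3 cannot go below 0.1, so none was used.

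The members and the partner, vesicle, substrate and marker lists were chosen with earlier results of these data known. Named were all members, the target and, from each of the 3 lists, the 4 called genes of largest change. ADAM10, IGSF8, PTGFRN, ITGB1, ITGA3 and ITGA6 were also named, as were the tested genes overlapping called members. FZD4, LRP5 and PIK3R3 fall outside this rule and were chosen after their values were seen. Other genes overlapping called members had at most 11 reads in any library and were not tested, among them RP11-58K22.4 and RP11-58K22.5 opposite CD82. The marker PECAM1 was not matched in the table. Replicate numbers did not pair the libraries. The knockdown column names carry a suffix that the labels do not explain. The labels name no batch: the descriptions share 1 code, with a number of its own for each library.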

Additional observations from a re-analysis of the deposited data

How the results depend on the processing

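Of the 15 tetraspanin calls, those of CD9, CD37, CD81, CD82, TSPAN6, TSPAN11, TSPAN12, TSPAN13 and TSPAN14 (9 genes) kept their sign and their side of the threshold in each alternative fit and at an adjusted p under 0.01. The other 6 lost the call in at least 1, TSPAN3 only when the intensity trend was left out. The number of members called lower was 3 with quantile normalization, 3 at an adjusted p under 0.01, and 3 to 5 when a library was left out, lowest without control 3. The replicate block, with numbers that the libraries share only as labels, gave 10 members called, 3 of them lower, and 6454 genes in all. At an adjusted p under 0.01, 5195 genes were called. Requiring a log2 change of at least 1 left 561 genes, with 1 tetraspanin (1 higher, 0 lower), 4 partners, 1 vesicle gene and 2 substrates. Uncalled members changed sign: TSPAN5 was 0.0046 with library totals, 0.0049 when thinned to equal depth and -0.039 to 0.0026 with a library left out, TSPAN4 was -0.16 to 0.011 and TSPAN32 -0.15 to 0.50 with a library left out. sin-lncRNA stayed between -3.02 and -2.50. The causes of these shifts were not tested. The fewest reads among the tested members were those of TSPAN2, TSPAN19 and TSPAN32, whose intervals are the widest. All alternatives listed beforehand were run. The named genes of the 3 lists were put through them after the data were seen.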

Other observations

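Some genes of the wider tetraspanin superfamily fall outside the rule for members, by name or by gene type, and were looked at after their values were seen. TSPAN10, a TspanC8 gene that the table types as a polymorphic pseudogene, averaged 1.33 ± 0.42 CPM in the controls and 0.728 ± 0.151 CPM after knockdown (SD, n = 3 each). Its log2 fold change was -0.81 (SE 0.27, limma adjusted p = 0.034), although single libraries of the groups overlapped. PRPH2 and ROM1, tetraspanins of the photoreceptor disc rim, had log2 fold changes of -0.24 and -0.45 and were not called. UPK1A and UPK1B, the uroplakin tetraspanins of the bladder lining, had at most 2 reads in any library.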
